A study of Mus musculus with 40 samples.

Results

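Livers of germ-free mice that ate a Western diet and received delta-valerobetaine (VB) were set against livers of germ-free mice that ate a control diet and received vehicle. The comparison is the net change of diet and VB together. It was chosen by the titles of the samples, which place 5 mice in each of these groups, so 10 of the 20 mice in the study carry it. The mice were male C57BL/6 animals without gut microbes, given VB or vehicle for 6 weeks and sampled on postnatal day 64. The remaining 10 mice had the Western diet with vehicle or the control diet with VB, and they entered the fit and are quoted where they place a net change. The labels give neither the composition of the diets nor the dose and route of VB. A germ-free liver is a limited model of VB action in a colonised host, because the microbes that make the compound are absent.

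VB is a trimethylated compound made by gut bacteria. It resembles gamma-butyrobetaine, the last precursor of carnitine, and carnitine carries long-chain fatty acids into mitochondria. A Western diet brings fat and commonly cholesterol to the liver. Hepatocytes answer sterol with a feedback loop: the transcription factor SREBP2 switches on the enzymes of cholesterol synthesis when sterol is scarce, and the nuclear receptor LXR switches on sterol exporters when oxysterols accumulate. The design asks how far the liver of a mouse given both the diet and VB departs from that of an untreated mouse.

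The counts of the 2 sequencing lanes were added up for each mouse. Totals ran from 18157449 to 24566686 counts per mouse in Western diet VB mice, against 18126657 to 21308298 in control diet vehicle mice. The labels name neither littermates nor cages. The p-values measure the spread between mice and take no account of any cage or litter that mice of a group shared. For Western diet VB mouse 1, the treatment label of 1 lane file reads vehicle while its title reads VB. That lane correlated best with the mouse's other lane, which does not tell which label is right. The library names of both lanes carry VB, as the title does, and the mouse was kept under its title. Library names differ in form between the diets, so diet and any handling that follows those names cannot be told apart. None of 8 hepatocyte markers passed the test, and their summed level was 36294 to 46218 CPM, the usual scaling of counts to library size, in Western diet VB mice and 43976 to 49289 CPM in control diet vehicle mice. The adipocyte marker Adipoq, named after its values were seen, stood out in 2 livers. Adipoq, which encodes the fat cell hormone adiponectin, was at 7.31 CPM in Western diet VB mouse 2 and 4.09 CPM in mouse 5, at 0 in the other 3 mice of that group, and between 0 and 0.107 CPM in control diet vehicle mice. Results were therefore also computed without those mice. In bulk liver RNA, fewer cells of a type and less RNA per cell cannot be told apart.

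The net change was led by a collapse of cholesterol synthesis transcripts, a rise of major urinary protein transcripts, a fall of several drug-metabolising enzymes and a shift of circadian clock genes. Of 12616 genes tested with edgeR's quasi-likelihood test, 504 (3.99%) were called (Benjamini-Hochberg adjusted p below 0.05), among them 218 (1.73%) higher and 286 (2.27%) lower in Western diet VB mice. A change of at least 2-fold was reached by 180 of them, 88 higher and 92 lower. The 5 levels of the Western diet VB mice lay wholly above or below those of the control diet vehicle mice in 728 genes (5.77%), of which 403 were called. The median called gene differed 1.66-fold, and the median log2 change of all genes tested was 0.012.

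**Figure D1:**
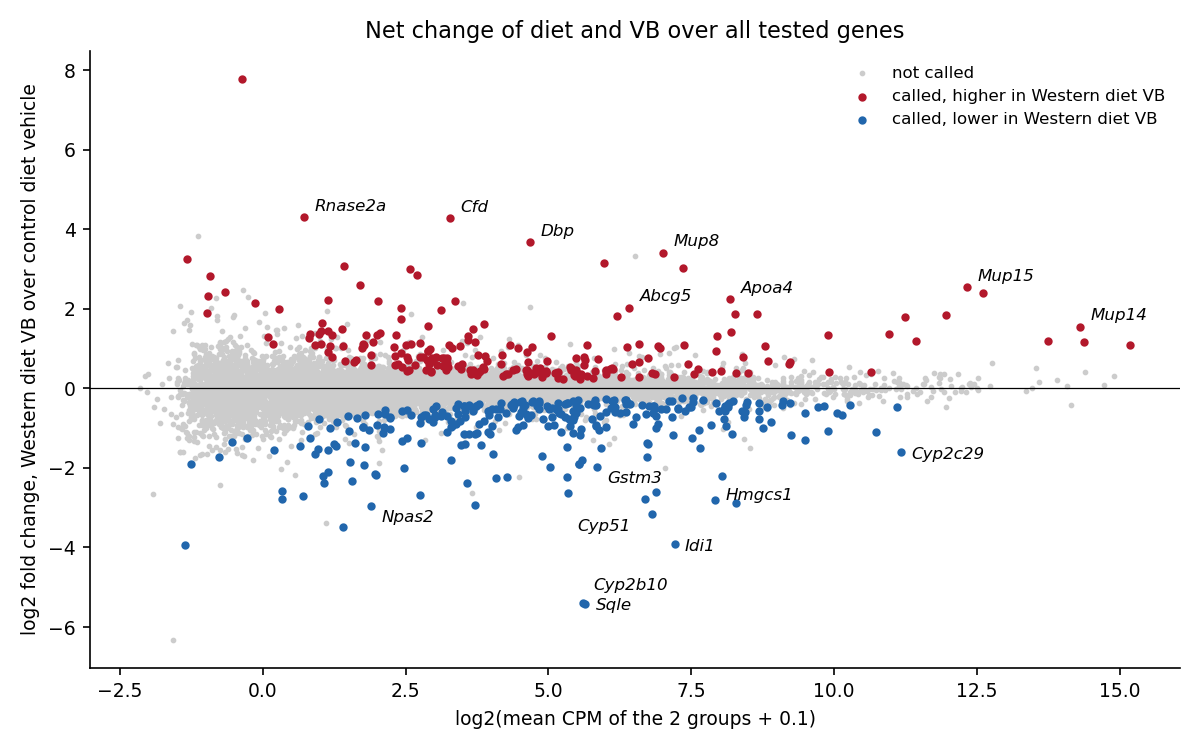
Log2 fold change of Western diet VB over control diet vehicle (vertical axis) against the log2 mean CPM of both groups plus 0.1 (horizontal axis), 1 point per tested gene, with called genes in red (higher) and blue (lower). Sqle at -5.42 and Cyp2b10 at -5.39 lie lowest among the labelled genes, Rnase2a at 4.31 and Cfd at 4.27 highest, and Mup genes lie at the high-expression end.

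Cholesterol synthesis fell at almost every step. All 11 tested enzymes from acetyl-CoA to lanosterol fell and none rose, with a median log2 change of -2.26. Of 9 enzymes from lanosterol to cholesterol 8 fell, with a median of -1.72. Across all genes tested, 2.27% fell.

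Promoters of 3 of these genes are printed with their CCAAT boxes and any match to the core of the sterol element, through which SREBP2 is known to act. Hmgcs1 holds a match to that core, and Idi1 and Mvd hold none. They are the RefSeq windows of 250 bases before to 50 bases after the start (GRCm38.p6). Capitals mark CCAAT, the box bound by NF-Y, or its reverse ATTGG, and in Hmgcs1 also CACCCCAC, a match to the sterol element core CACNCCAC. The windows are chr13:119690101-119690400 on the plus strand for Hmgcs1, chr13:8885356-8885655 on the plus strand for Idi1 and chr8:122443373-122443672 on the minus strand for Mvd.
Hmgcs1: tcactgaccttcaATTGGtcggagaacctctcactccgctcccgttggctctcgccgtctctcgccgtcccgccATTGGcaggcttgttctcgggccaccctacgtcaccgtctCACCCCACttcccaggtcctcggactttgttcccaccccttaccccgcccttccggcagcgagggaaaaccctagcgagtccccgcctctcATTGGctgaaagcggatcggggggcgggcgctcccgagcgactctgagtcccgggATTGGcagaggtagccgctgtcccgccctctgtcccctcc
Idi1: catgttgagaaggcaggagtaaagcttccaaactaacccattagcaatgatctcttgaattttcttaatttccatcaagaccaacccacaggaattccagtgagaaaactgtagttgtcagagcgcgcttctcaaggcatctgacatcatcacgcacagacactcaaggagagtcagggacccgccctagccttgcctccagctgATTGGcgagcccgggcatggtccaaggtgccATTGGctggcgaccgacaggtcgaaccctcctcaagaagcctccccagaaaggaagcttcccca
Mvd: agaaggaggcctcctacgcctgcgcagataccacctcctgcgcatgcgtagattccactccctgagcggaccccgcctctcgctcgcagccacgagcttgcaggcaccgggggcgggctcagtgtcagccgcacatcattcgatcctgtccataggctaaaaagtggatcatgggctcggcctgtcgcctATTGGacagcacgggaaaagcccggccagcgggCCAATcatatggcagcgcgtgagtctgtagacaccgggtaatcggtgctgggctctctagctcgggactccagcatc
Hmgcs1 holds 4 CCAAT boxes, and Idi1 and Mvd hold 2 each. CCAAT, read on both strands, was in a window of 19 of 23 cholesterol synthesis and SREBP2 control genes (82.6%), against 43% of 9448 tested genes with a window. A gene with several windows counted if any of them held the match. CCAAT was also in a window of 13 of 18 clock genes (72.2%) and 7 of 12 heat shock genes (58.3%). CACNCCAC was in 3 of the 23 (13%), against 7.63% of tested genes and 3 of the 18 clock genes (16.7%). Neither share was particular to the sterol genes. A match is a description of the letters and not of bound sites.

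The early steps make mevalonate and activate it. Hmgcs1 (chr13:119690379-119708260, plus strand), the synthase that makes HMG-CoA, was at 66.8, 53.1, 69.2, 75.6 and 36.2 CPM in Western diet VB mice, against 375, 472, 339, 520.3 and 397 CPM in control diet vehicle mice. The groups did not overlap, and the fall was 6.99-fold (log2 change -2.80, SE 0.23, adjusted p = 8.35e-08). The mevalonate decarboxylase Mvd averaged 5.85 ± 0.543 CPM in Western diet VB mice and 28.0 ± 4.47 CPM in control diet vehicle mice (SD, n = 5 each), a log2 change of -2.26 (SE 0.22).

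The middle steps build isoprenoids and squalene. Idi1 (chr13:8885501-8892451, plus strand), which isomerises the isoprene unit, was at 17.5, 17.2, 21.0, 18.1 and 17.6 CPM in Western diet VB mice, against 266, 253, 238, 367 and 259 CPM in control diet vehicle mice. Every Western diet VB mouse lay within a narrow band far under every control diet vehicle mouse, and the fall was 15.1-fold (log2 change -3.92, SE 0.15, adjusted p = 8.24e-14). Fdps, which makes farnesyl diphosphate, averaged 74.3 ± 10.5 CPM against 546 ± 40.7 CPM, and Fdft1, which makes squalene, averaged 26.3 ± 6.11 CPM against 181 ± 22.0 CPM. Sqle (chr15:59315077-59331192, plus strand), whose product turns squalene into its epoxide, was at 3.17, 3.13, 1.80, 1.34 and 2.11 CPM in Western diet VB mice, against 88.2, 114, 93.1, 115 and 78.0 CPM in control diet vehicle mice. It had the deepest fall of any enzyme of the pathway, 42.7-fold (log2 change -5.42, SE 0.26, adjusted p = 1.71e-11).

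After lanosterol, the demethylase Cyp51 averaged 22.5 ± 3.22 CPM in Western diet VB mice and 202 ± 31.2 CPM in control diet vehicle mice, an 8.99-fold fall (adjusted p = 1.51e-12). Nsdhl and Msmo1, which act at the following demethylation steps, fell 6.18-fold and 6.10-fold, and the late reductase Dhcr7 fell 3.76-fold.

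**Figure D2:**
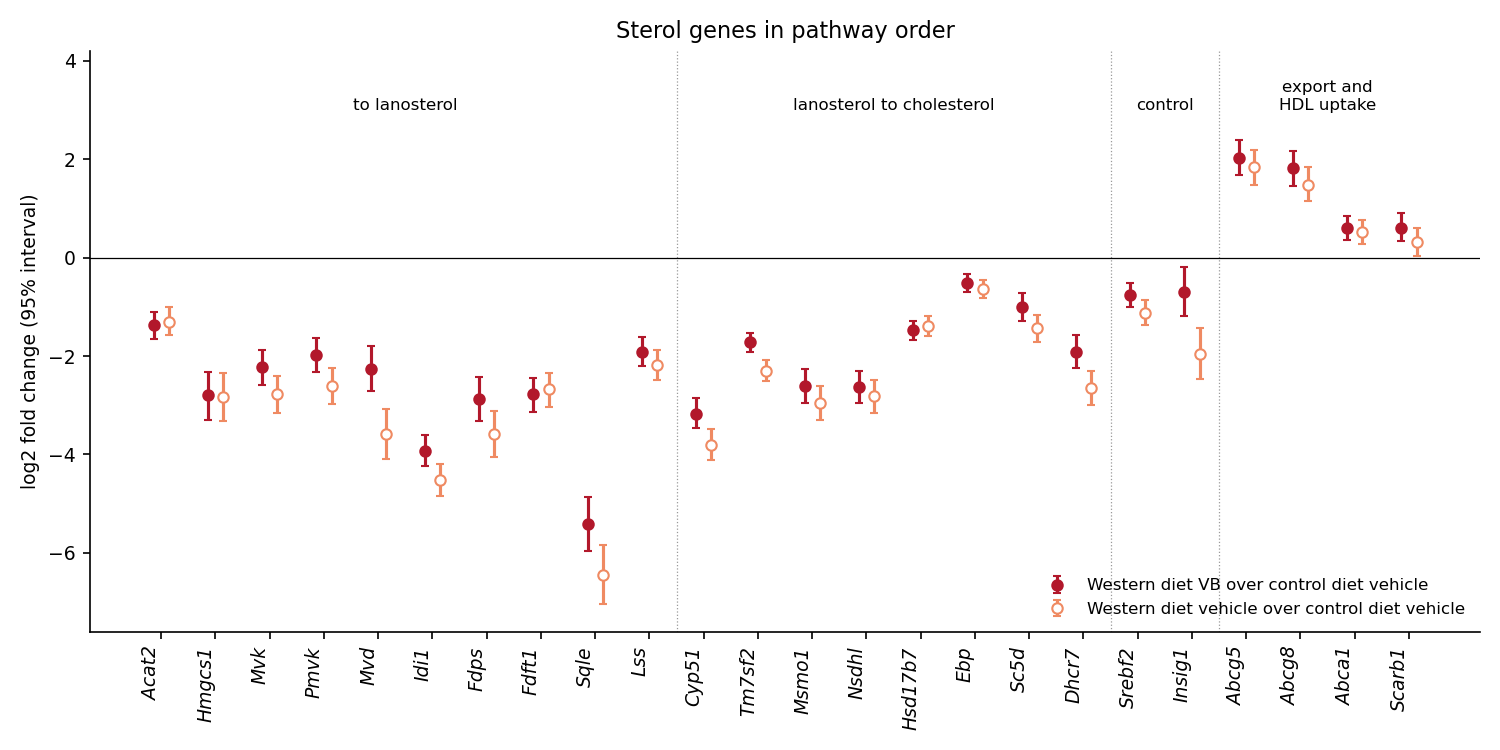
Log2 fold changes with 95% intervals for the sterol genes shown, in pathway order, with filled points for Western diet VB over control diet vehicle and open points for Western diet vehicle over control diet vehicle. Sqle was lowest in both, at -5.42 and -6.44, while the exporters Abcg5 and Abcg8 lay above 0 in both.

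The control genes of the loop moved less than its enzymes. Of 12 tested genes of SREBP2 control and lipoprotein uptake 4 fell (33.3%, against 2.27% of all genes) and none rose. Their median log2 change was -0.29. Srebf2, which encodes SREBP2 itself, averaged 22.1 ± 3.56 CPM in Western diet VB mice and 37.4 ± 4.60 CPM in control diet vehicle mice, a 1.69-fold fall (adjusted p = 4.54e-04). Stard4, a sterol carrier, fell 1.92-fold and Tmem97 1.51-fold, the second with an adjusted p of 0.0594 without Western diet VB mice 2 and 5. Insig1, which holds the SREBP complex in the endoplasmic reticulum, did not pass the test, with a log2 change of -0.69 (95% interval -1.19 to -0.20, adjusted p = 0.121).

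Sterol export moved the opposite way. Of 10 tested LXR and sterol export genes 4 rose and none fell, with a median log2 change of 0.34, where 1.73% of all genes rose. Abcg5 (chr17:84658234-84683011, minus strand), a subunit of the transporter that pumps sterol into bile, was at 202, 129.8, 135, 123 and 94.2 CPM in Western diet VB mice, against 28.9, 37.7, 33.0, 35.2 and 32.7 CPM in control diet vehicle mice. Its partner Abcg8 was at 169.8, 113, 106, 105 and 80.0 CPM, against 26.2, 30.8, 33.4, 38.2 and 35.0 CPM. Both groups were fully apart in both genes, with rises of 4.09-fold (log2 change 2.03, SE 0.17, adjusted p = 3.48e-08) and 3.51-fold (adjusted p = 1.97e-07). The annotated Abcg5 and Abcg8 genes overlap on opposite strands and the sources used here do not give the strand setting of the counting, so reads of the overlap cannot be assigned. Abca1, which loads cholesterol onto HDL, rose 1.52-fold and Scarb1, the HDL receptor, 1.53-fold. Without Western diet VB mice 2 and 5 their adjusted p was 0.0549 and 0.068.

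Lipogenic and bile acid genes showed no common direction. Of 14 fatty acid synthesis genes 1 rose and 1 fell (14.3% called, against 3.99% of all genes). Acss2, which makes acetyl-CoA from acetate, averaged 93.3 ± 8.74 CPM in Western diet VB mice and 429.9 ± 111 CPM in control diet vehicle mice, a 4.61-fold fall (adjusted p = 1.93e-06). Srebf1, the lipogenic relative of Srebf2, was higher by 1.31 on the log2 scale (adjusted p = 0.0476), with overlapping groups, and its call was lost under RLE and upper-quartile scaling among other settings. Fasn, the fatty acid synthase, was at 202 ± 67.7 CPM against 361 ± 193 CPM (adjusted p = 0.354), and Scd1, the main desaturase, at 8452 ± 1582 CPM against 5460 ± 3257 CPM (adjusted p = 0.453). Of 12 bile acid synthesis genes only Cyp27a1, the first enzyme of the alternative pathway, was called, with a fall of 1.29-fold (adjusted p = 0.00815). That is 8.33% of the list, against 3.99% of all genes. Cyp7a1, the rate-limiting enzyme of the classical pathway, was at 40.2, 39.2, 86.5, 64.4 and 52.8 CPM, against 21.1, 23.4, 25.6, 23.4 and 37.1 CPM. All 5 Western diet VB mice lay above all 5 control diet vehicle mice, yet the difference of 1.12 (SE 0.42) did not pass the test (adjusted p = 0.18).

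Western diet vehicle mice place these sterol changes. Sqle averaged 1.09 ± 0.476 CPM in them and Idi1 12.1 ± 2.53 CPM. The test of Western diet VB against Western diet vehicle, in which 907 genes (7.19%) were called, is also the test of whether the net change differs from the change with diet alone. That contrast had 1 call with a score of clock genes, described further on, as covariate, and 295 without Western diet VB mice 2 and 5. The score did not overlap between these groups, so the fit with it cannot separate score from group. Higher levels were found in Western diet VB mice in Idi1 by 0.60 (SE 0.14, adjusted p = 0.0129), in Cyp51 by 0.64 (SE 0.14, adjusted p = 0.00725), in Mvd by 1.33 (SE 0.25, adjusted p = 0.00232), in Dhcr7 by 0.74 (SE 0.16, adjusted p = 0.00594) and in Insig1 by 1.26 (SE 0.24, adjusted p = 0.00303) on the log2 scale. For Sqle the difference was 1.02 (SE 0.32, adjusted p = 0.0591), and for Hmgcs1 it was 0.033 (SE 0.22, adjusted p = 0.961). The levels of Western diet VB mice thus lay near those of Western diet vehicle mice and far below the 97.6 ± 16.3 CPM of Sqle and 277 ± 51.4 CPM of Idi1 in control diet vehicle mice.

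Major urinary protein (Mup) genes rose as a family. These lipocalins are secreted by male liver, carry pheromones into urine, and are known to respond to growth hormone and metabolic state. Of 21 tested members 17 rose (81%, against 1.73% of all genes) and none fell, with a median log2 change of 1.33. Together they took 19.5, 25.2, 15.8, 16.3 and 24.6% of all counts in Western diet VB mice, against 13.7, 9.78, 11.4, 8.87 and 11.8% in control diet vehicle mice. The means were 20.3 ± 4.46% and 11.1 ± 1.90% (SD, n = 5 each), and the groups did not overlap (exact permutation test, 2-sided, p = 0.00794, the smallest 5 against 5 mice allow). Mice 2 and 5, the livers with Adipoq counts, had the highest shares, and without them the difference was 6.09 percentage points rather than 9.17 and 9 of the 21 members were called.

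Mup14 (chr4:61300023-61304000, minus strand) was at 31292, 39492, 20740, 23017 and 36182 CPM in Western diet VB mice, against 13796, 8343, 11323, 6773 and 11129 CPM in control diet vehicle mice, a 2.93-fold rise (adjusted p = 5.86e-04). Mup8 averaged 234 ± 199.8 CPM against 21.9 ± 5.55 CPM, and Mup15 averaged 8745 ± 4628 CPM against 1496 ± 691 CPM. Within the Western diet VB group mouse 2 and mouse 5 were highest in all 3. Mup20, which encodes the male pheromone darcin, differed by 0.51 (95% interval 0.073 to 0.95, adjusted p = 0.216). Mup genes are near-identical copies in a cluster on chromosome 4, and the sources used here do not say how shared reads were split, so the family sum is firmer than any member.

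Mup shares with diet alone or VB alone lay below those of every Western diet VB mouse. The Mup share was 11 ± 1.28% with the Western diet and vehicle, and 7.56 ± 1.44% with VB on the control diet. Every Western diet VB mouse was also above every Western diet vehicle mouse in Mup14, which ran from 9002 to 18752 CPM in Western diet vehicle mice. Of 20 male-biased liver genes 1 rose and 1 fell (10% called, against 3.99% of all genes), with log2 changes from -1.06 to 3.33. None of 13 growth hormone signalling genes was called, a count that a list of this size often has at that share. Their log2 changes ran from -2.64 to 2.04, and 2 of them were called, lower, with DESeq2. Hsd3b5, a male steroid dehydrogenase, differed by 0.40 (95% interval -0.05 to 0.85) and Igf1, the main growth hormone target of liver, by 0.11 (-0.12 to 0.34). With Mup genes left out of library sizes 503 genes were called, 491 of them among the 504. Albumin, the most abundant secreted protein, took 1.43 ± 0.300% of counts in Western diet VB mice and 2.13 ± 0.231% in control diet vehicle mice, while on TMM-scaled levels Alb was not called (log2 change -0.41, adjusted p = 0.107, groups overlapping).

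**Figure D3:**
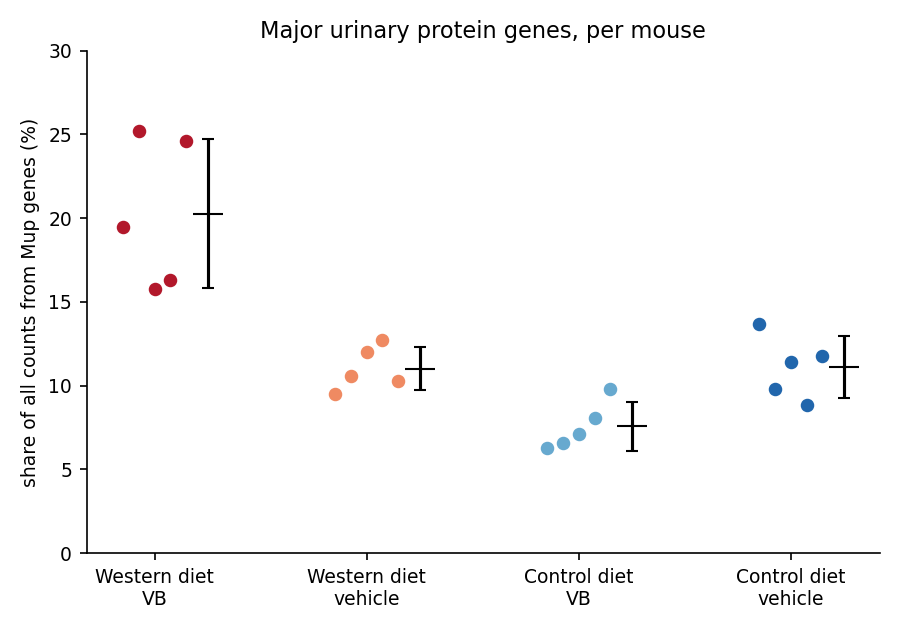
Share of all counts from 21 Mup genes (vertical axis, percent), 1 point per mouse, with the mean and SD of each group beside its points. Western diet VB mice lie between 15.8 and 25.2%, above all mice of the other 3 groups.

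Drug-metabolising enzymes fell. The nuclear receptors CAR and PXR switch on cytochromes P450 in response to foreign compounds and bile acids. Of 15 tested genes of this list 7 fell (46.7%, against 2.27% of all genes) and none rose, with a median log2 change of -0.40. Cyp2b10 (chr7:25897620-25926624, plus strand), the standard CAR target, was at 0.994, 0.954, 1.47, 7.62 and 0.240 CPM in Western diet VB mice, against 77.6, 113, 88.3, 110.0 and 84.7 CPM in control diet vehicle mice. The groups were more than an order of magnitude apart, with mouse 4 highest among Western diet VB mice, and the fall was 41.9-fold (log2 change -5.39, SE 0.55, adjusted p = 5.60e-06). Cyp2c29, an abundant epoxygenase, was at 1325, 1066, 1266, 1379 and 627 CPM, against 3063, 3515, 3453, 3958 and 3310 CPM, a 3.05-fold fall (adjusted p = 1.90e-07). Cyp2c55 fell 6.35-fold and Cyp2c54 2.24-fold. Members of the Cyp2c cluster are similar in sequence, so single values carry the same doubt as those of Mup genes. Cyp3a11, the standard PXR target, was at 593 ± 216 CPM against 777 ± 149 CPM and did not pass the test (log2 change -0.39, 95% interval -0.88 to 0.10, adjusted p = 0.463).

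Cyp1a1 and Cyp1a2, which the aryl hydrocarbon receptor induces, fell as well. Cyp1a2 averaged 416 ± 65.8 CPM in Western diet VB mice and 1025 ± 132 CPM in control diet vehicle mice, a 2.46-fold fall (adjusted p = 5.29e-07), and Cyp1a1 fell 6.85-fold from a low level, at 0.291 ± 0.117 CPM against 2.03 ± 0.605 CPM. Cyp1a2 was the only called gene of 12 pericentral markers (8.33%, against 3.99% of all genes).

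Conjugating enzymes and transporters were split. Of 18 phase II genes 5 fell and 2 rose (38.9% called, against 3.99% of all genes), with a median log2 change of -0.37. Gstm3, a glutathione transferase, was at 23.4, 14.6, 26.2, 32.7 and 20.4 CPM in Western diet VB mice, against 102, 106, 88.6, 92.3 and 70.0 CPM in control diet vehicle mice, a 3.91-fold fall without overlap (adjusted p = 2.40e-05). Gstm1 averaged 1090 ± 241 CPM against 2331 ± 148 CPM, and Ugdh, which makes the donor sugar for glucuronidation, averaged 134 ± 15 CPM against 199.7 ± 20.4 CPM. Abcc3, which exports conjugates and bile acids to blood, was at 78.0, 96.2, 104, 102 and 60.9 CPM, against 121, 188, 193, 237 and 264 CPM, a 2.27-fold fall (adjusted p = 0.00189). Slc22a7, an organic anion transporter of male liver, rose 2.18-fold to 131 ± 36.4 CPM, against 60.0 ± 6.18 CPM in control diet vehicle mice (adjusted p = 5.15e-04).

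In Western diet vehicle mice Cyp2b10 averaged 14.5 ± 7.36 CPM, Cyp2c29 1827 ± 191 CPM and Abcc3 215 ± 62.5 CPM. Against these, levels were lower in Western diet VB mice in Cyp2b10 by a log2 change of -2.67 (SE 0.53, adjusted p = 0.00475), in Cyp2c29 by -0.69 (SE 0.15, adjusted p = 0.0053) and in Gstm3 by -1.03 (SE 0.24, adjusted p = 0.0102). Cyp3a11 was higher with diet alone, at 1727 ± 579 CPM, and Western diet VB mice were lower, with a log2 difference of -1.54 (SE 0.24, adjusted p = 7.48e-04). Cyp1a2 went the other way, with Western diet VB mice above Western diet vehicle mice by 0.48 (SE 0.13, adjusted p = 0.0233).

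Clock genes shifted. In the circadian clock, Arntl and its partners Clock or Npas2 switch on the Per, Cry and Dbp genes, whose products or relatives feed back, so each gene peaks at its own time of day. Of 5 activators 3 fell and none rose, and the smallest of these falls, 1.23-fold in the receptor gene Rora (adjusted p = 0.0412), lost its call when any 1 of 9 of the 10 mice was left out. Of 10 repressors 3 rose and 1 fell, and of 7 output factors 4 rose and none fell. Among all genes tested, 1.73% rose and 2.27% fell. Dbp (chr7:45705088-45710203, plus strand), an output factor, was at 66.1, 15, 47.9, 75.9 and 33.1 CPM in Western diet VB mice, against 0.362, 0.788, 1.07, 12 and 3.85 CPM in control diet vehicle mice. The groups did not overlap although both varied widely, and the rise was 12.8-fold (log2 change 3.68, SE 0.65, adjusted p = 0.00263). Fitted on the 2 groups alone, Dbp was not called.

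Ciart, a repressor of the clock, is printed because its window holds 3 copies of CACGTG, the E-box that the Arntl complex binds (capitals; chr3:95882179-95882478, minus strand, GRCm38.p6, RefSeq).
Ciart: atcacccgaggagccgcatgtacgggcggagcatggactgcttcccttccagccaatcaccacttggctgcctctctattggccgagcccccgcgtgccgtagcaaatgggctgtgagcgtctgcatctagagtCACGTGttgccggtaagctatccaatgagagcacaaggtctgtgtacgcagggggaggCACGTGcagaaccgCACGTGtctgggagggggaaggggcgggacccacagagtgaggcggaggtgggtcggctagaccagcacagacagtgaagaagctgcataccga
CACGTG was in a window of 5 of 18 clock genes (27.8%), against 11.8% of tested genes with a window. It was also in a window of 5 of 23 cholesterol synthesis and SREBP2 control genes (21.7%) and 2 of 12 heat shock genes (16.7%). Ciart was at 10.7, 6.62, 8.14, 20.8 and 5.91 CPM in Western diet VB mice, against 0.310, 1.79, 1.18, 1.58 and 1.58 CPM in control diet vehicle mice, an 8.02-fold rise (adjusted p = 1.46e-04). Per3 rose 4.65-fold, Per2 2.21-fold, Usp2 3.06-fold and Tef 2.12-fold. Among activators Npas2 was at 0.683, 1.17, 0.286, 0.360 and 1.63 CPM, against 9.50, 7.93, 5.00, 3.39 and 6.22 CPM, a 7.74-fold fall (adjusted p = 4.19e-05). Arntl fell 2.69-fold, with Western diet VB mouse 5 at 15.6 CPM inside the range of the control diet vehicle mice, and Cry1 fell 2.23-fold. Nfil3, which opposes Dbp, differed by -0.45 (95% interval -0.77 to -0.12, adjusted p = 0.126).

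A score over 22 clock genes (their leading principal component, 60.7% of the variance) ran from -0.26 to 0.682 in Western diet VB mice and from -1.73 to -0.873 in control diet vehicle mice. In Western diet vehicle mice the score was 1.20 to 1.59, and with VB on the control diet it was -0.537 to 0.0223. Western diet VB mice thus overlapped neither vehicle group in the score. A fit with the score cannot separate it from group, so calls lost there do not show what the clock accounts for. The labels give no time of collection, so diet, VB and time of day cannot be told apart in these genes or in others that cycle. With the score as a covariate 120 genes were called, 91 of them among the 504, while 476 of the 504 kept their sign and their median SE was 0.33, against 0.15 without it. In that fit 10 of 11 enzymes to lanosterol, 8 of 9 beyond it, 15 Mup genes, 5 CAR and PXR genes and 3 MHC class II genes were called, and no sterol export, lipid droplet or apolipoprotein gene was. Of 23 acute phase genes 1 was then called, lower. The score is built from the clock genes, so their own calls in that fit say nothing.

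**Figure D4:**
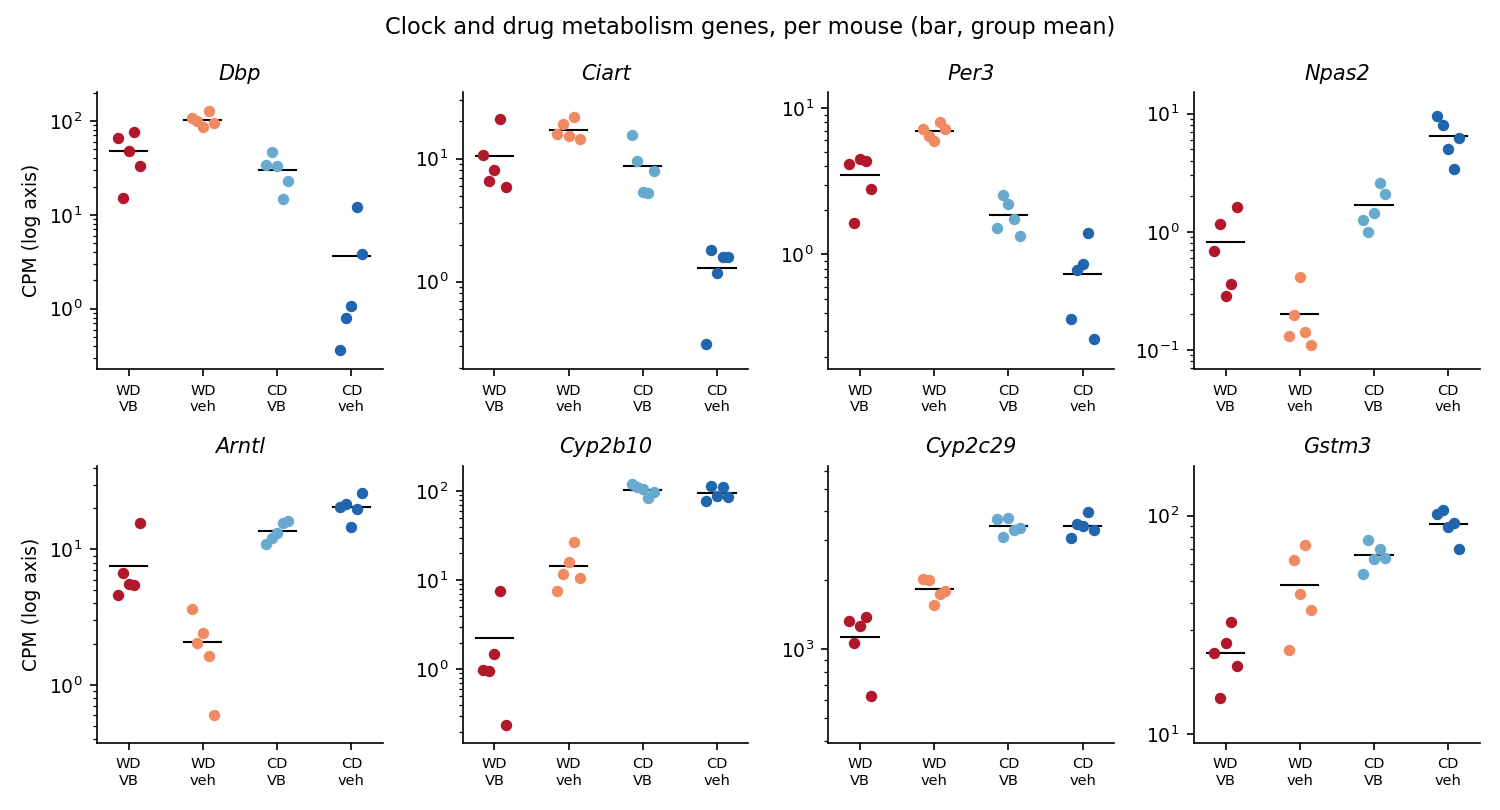
Per-mouse CPM (log axis) of 5 clock genes and 3 drug metabolism genes in the 4 groups (WD, Western diet; CD, control diet; veh, vehicle), with a bar at each group mean. Western diet VB mice lie between the vehicle groups in Dbp, Ciart, Per3, Npas2 and Arntl by their means, and have the lowest means in Cyp2b10, Cyp2c29 and Gstm3, where single mice overlap Western diet vehicle mice in Cyp2b10 and Gstm3.

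Most lipid droplet genes did not pass the test against control diet vehicle. Of 12 lipid droplet genes 1 rose (8.33%, against 1.73% of all genes) and none fell, with a median log2 change of 0.047. In Western diet vehicle against control diet vehicle the median of the same list was 0.59. Cidec, which fuses lipid droplets, was at 2.86, 12.1, 5.36, 13.8 and 8.03 CPM in Western diet VB mice, against 1.24, 1.58, 2.79, 1.67 and 3.11 CPM in control diet vehicle mice. Western diet VB mouse 1 lay within the other group's range. The 4.07-fold rise (log2 change 2.02, SE 0.48, adjusted p = 0.0195) was lost when control diet vehicle mouse 1, 2 or 4 or Western diet VB mouse 4 was left out, and without Western diet VB mice 2 and 5 (adjusted p = 0.0961). Cidec averaged 74.2 ± 50 CPM in Western diet vehicle mice, and Western diet VB mice were lower, with a log2 difference of -3.13 (SE 0.42, adjusted p = 4.09e-04).

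Of 10 genes of fatty acid uptake and PPARG 3 rose (30%, against 1.73% of all genes) and none fell. These were Fabp2, an intestinal-type fatty acid binding protein (2.09-fold), Slc27a2, a fatty acid transporter and acyl-CoA synthetase (1.34-fold, adjusted p = 0.0225), and Lpl, described further on. Without Western diet VB mice 2 and 5, only 1 of the 10 genes was called, Fabp2. Other genes of fat uptake and storage had net changes near 0. Cd36, a fatty acid receptor, was at 25.8, 44.5, 46.4, 58.0 and 21.5 CPM in Western diet VB mice, against 12.4, 55.5, 33.3, 51.5 and 44.3 CPM in control diet vehicle mice. The ranges coincided, with a log2 change of -0.0057 (95% interval -0.66 to 0.65), which leaves room for a change of more than 1.5-fold either way. Pparg, the regulator of fat storage, had 0.15 (-0.33 to 0.63), Plin2, the main coat protein of hepatic droplets, -0.073 (-0.31 to 0.17), Mogat1, a triglyceride synthesis enzyme, -0.012 (-0.80 to 0.77), and Fitm2, which helps droplets bud, -0.0024 (-0.36 to 0.35). Fitm2, Cd36 and Mogat1 were taken up partly because their net change was among the smallest in a set chosen by other contrasts. Its genes were called in Western diet vehicle against control diet vehicle, and the opposite way in Western diet VB against Western diet vehicle. For Fitm2, Cd36 and Mogat1, nearness to 0 and the difference from Western diet vehicle mice are thus a description. In Western diet vehicle mice Cd36 averaged 136 ± 24.6 CPM, above every Western diet VB mouse, and Pparg 17.6 ± 5.60 CPM. Pparg and Plin2 were lower in Western diet VB mice, with log2 differences of -1.64 in Pparg (SE 0.22, adjusted p = 2.46e-04) and -0.62 in Plin2 (SE 0.12, adjusted p = 0.00215).

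Few fat oxidation and carnitine genes, the pathway closest to the structure of VB, passed the test. PPARA is the receptor that switches on fat burning in fasting liver. Of 20 genes in its list Ppara rose and Abcd2, a peroxisomal transporter of very long fatty acids, fell 4.52-fold (10% called, against 3.99% of all genes). The median log2 change of the list was -0.0055, against 0.77 in Western diet vehicle over control diet vehicle. Ppara itself averaged 134 ± 14.2 CPM in Western diet VB mice and 79.1 ± 26.2 CPM in control diet vehicle mice, a 1.70-fold rise (adjusted p = 0.00507). None of 15 mitochondrial oxidation genes was called, and their log2 changes ran from -0.12 to 0.14. Cpt1a, the carnitine-dependent gate of mitochondrial fat entry, was at 249 ± 20.3 CPM against 188 ± 49.3 CPM (adjusted p = 0.157), and at 354 ± 78.2 CPM in Western diet vehicle mice.

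Of 9 carnitine genes Aldh9a1, which makes gamma-butyrobetaine, fell 1.29-fold (adjusted p = 0.00969), and the others were not called. That is 11.1% of the list, against 3.99% of all genes. Bbox1, which turns gamma-butyrobetaine into carnitine, was at 130.2, 128, 118, 154 and 119 CPM in Western diet VB mice, against 107, 134, 127, 138 and 139 CPM in control diet vehicle mice. Slc22a5, the carnitine transporter, was at 16.9, 18.1, 17.5, 23.9 and 15.5 CPM, against 13.9, 17.3, 18.1, 26.1 and 28.1 CPM. The groups overlapped in both, with log2 changes of 0.009 (95% interval -0.17 to 0.19) and -0.17 (-0.65 to 0.30). Slc22a5 averaged 43.7 ± 8.68 CPM in Western diet vehicle mice, and Western diet VB mice were lower, with a log2 difference of -1.25 (SE 0.23, adjusted p = 0.00201), while for Bbox1 that difference was -0.33 (SE 0.086, adjusted p = 0.0199).

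**Figure D5:**
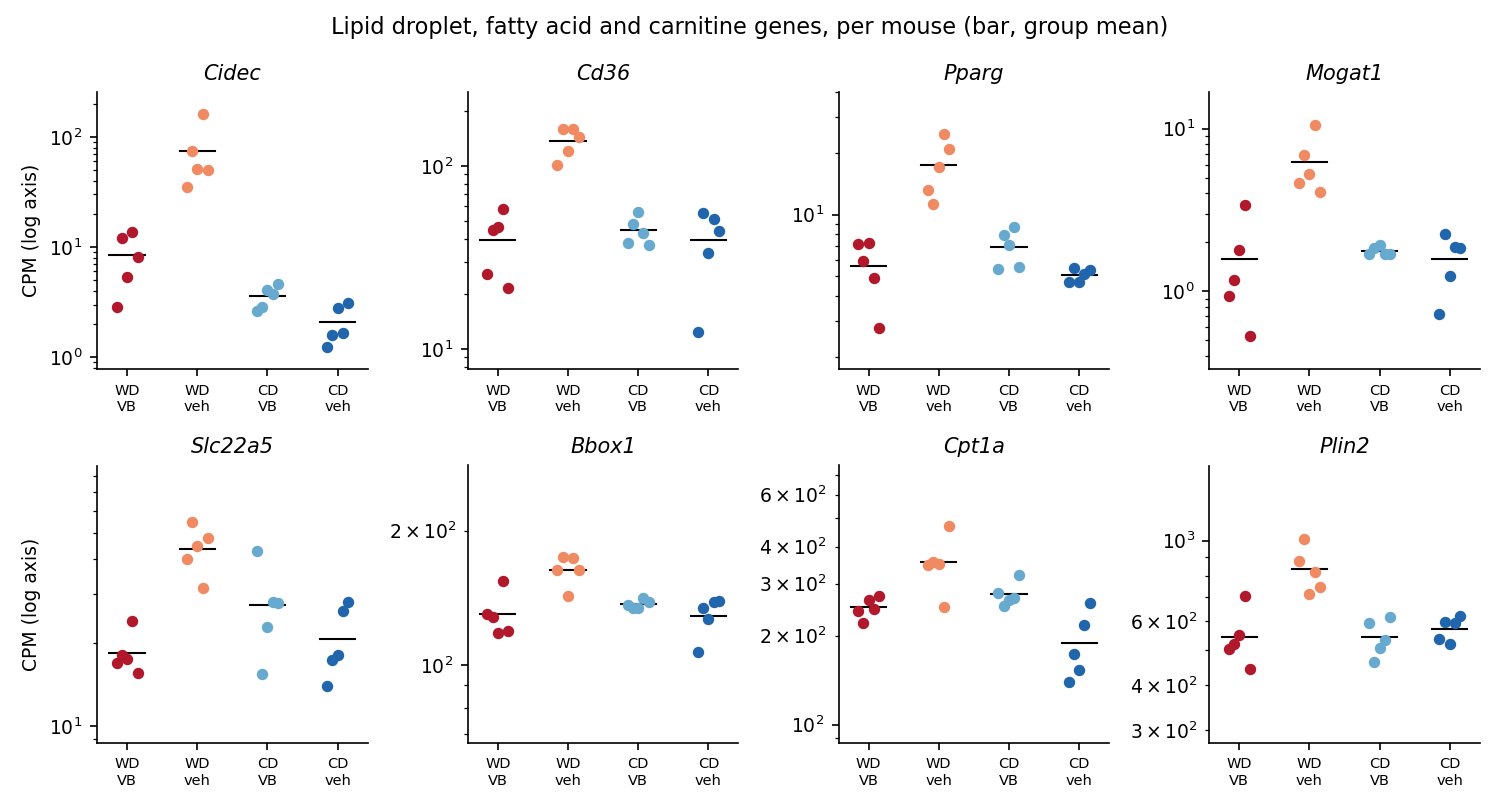
Per-mouse CPM (log axis) of 8 lipid droplet, fatty acid and carnitine genes in the 4 groups (WD, Western diet; CD, control diet; veh, vehicle), with a bar at each group mean. In all 8 genes Western diet VB mice overlap control diet vehicle mice and lie at a lower mean than Western diet vehicle mice. Cd36 and Mogat1 were taken up partly for this pattern, so in them it is a description.

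Further lipid genes changed in both directions. Apoa4, an apolipoprotein that rises with dietary fat, was at 373, 457, 412, 699 and 459 CPM in Western diet VB mice, against 97.0, 166, 76.8, 97.0 and 72.5 CPM in control diet vehicle mice, a 4.72-fold rise without overlap (adjusted p = 6.84e-04). Apoc2, the cofactor of lipoprotein lipase, rose 1.90-fold, and Acot11, a thioesterase, 4.60-fold (adjusted p = 5.91e-07). The carboxylesterases Ces1d and Ces1g, which hydrolyse triglyceride, fell 2.26-fold and 1.86-fold.

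Genes shared with adipose tissue need the marker values beside them. Cfd, which encodes adipsin, was at 4.97, 32.3, 19.6, 22.4 and 11.6 CPM in Western diet VB mice, against 0.362, 0.578, 1.02, 1.67 and 1.00 CPM in control diet vehicle mice, a 19.2-fold rise (adjusted p = 0.00183) that limma-voom did not call. Western diet VB mice 1, 3 and 4, with Adipoq at 0, were above every control diet vehicle mouse in Cfd. Lpl, lipoprotein lipase, was at 17.9, 43.7, 23.0, 24.5 and 38.3 CPM, against 17.4, 17.3, 13.7, 13.4 and 11.4 CPM. Its highest values were in mice 2 and 5, and its log2 change was 1.01 (adjusted p = 0.00333) with them and 0.56 (adjusted p = 0.0756) without them. The adipocyte list, of which 4 of 8 members were tested, had 1 member that rose, Cfd, and its summed level, most of it Pck1, which hepatocytes also express, was 2744 to 3666 CPM, against 2328 to 3588 CPM. Its part in these rises was not tested beyond leaving out both mice.

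MHC class II transcripts fell. These genes present peptides on macrophages, dendritic cells and B cells. Of 7 tested 4 fell (57.1%, against 2.27% of all genes) and none rose, with a median log2 change of -0.89. H2-Ab1, a beta chain, was at 26.3, 23.5, 25.4, 26.2 and 17.4 CPM in Western diet VB mice, against 52.2, 49.0, 50.7, 62.5 and 40.6 CPM in control diet vehicle mice, a 2.15-fold fall without overlap (adjusted p = 5.70e-04). H2-Eb1 fell 2.13-fold, H2-Aa 1.97-fold and the invariant chain Cd74 1.85-fold. None of 8 Kupffer cell markers, of 4 B cell markers or of 18 interferon-stimulated genes was called, where 3.99% of all genes were. The summed Kupffer markers were at 122 to 266 CPM against 155 to 207 CPM.

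A few acute phase transcripts rose. Of 23 tested 5 rose (21.7%, against 1.73% of all genes) and none fell, with a median log2 change of 0.24. Of the 5, Orm3, an orosomucoid, and Saa2 lost their calls in 12 and 11 of the settings other than the clock score, and no member was called higher with the clock score as covariate. Saa1, a serum amyloid made in inflammation, was at 923, 77.0, 31.3, 331 and 102 CPM in Western diet VB mice, against 37.4, 33.6, 48.6, 34.1 and 26.6 CPM in control diet vehicle mice. Mice 1 and 4 were far above the rest and mouse 3 lay within the control range, and the call (adjusted p = 0.0163) was lost with limma-voom and when only these groups were fitted. Saa4, the constitutive member, rose 2.10-fold without overlap (adjusted p = 5.70e-04). S100a9, a neutrophil gene, was the 1 called of 5 tested monocyte and neutrophil markers, with overlapping groups and at most 1.18 CPM. Hamp, the iron hormone hepcidin, was at 191 ± 37.2 CPM against 544 ± 153 CPM and missed the threshold (adjusted p = 0.0668).

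One-carbon metabolism, which uses betaines as methyl donors, had 3 lower members. Of 17 methyl cycle genes 3 fell (17.6%, against 2.27% of all genes) and none rose. Cth, which makes cysteine, fell 1.71-fold and Gnmt, which disposes of excess methyl groups, 1.39-fold. Bhmt, the betaine-using methyltransferase, differed by -0.042 (95% interval -0.44 to 0.36).

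Large changes were also found in other genes. Rnase2a, a ribonuclease of the eosinophil type, was at 3.29, 4.93, 0.982, 1.65 and 3.99 CPM in Western diet VB mice, against 0.465, 0.105, 0, 0 and 0.158 CPM in control diet vehicle mice, and it had the largest fitted rise among genes named by the rule (log2 change 4.31, SE 0.64, adjusted p = 4.59e-04). Its level was near 0 in control diet vehicle mice, so the size of the fold depends on few counts. Adam11 averaged 11.2 ± 0.926 CPM against 1.56 ± 0.558 CPM, and Smpd3, a neutral sphingomyelinase, 5.39 ± 2.93 CPM against 0.882 ± 0.573 CPM. Raet1e and Raet1d, ligands of the NKG2D receptor of NK cells, fell 11.1-fold and 7.59-fold, though their annotated positions overlap. Asns, an asparagine synthetase, fell 4.42-fold with overlapping groups, and Cdkn1a, the p53 target that halts the cell cycle, fell 2.80-fold (adjusted p = 0.0255), a call that ended without any 1 of 4 mice.

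Some genes were set apart in Western diet VB mice from all 3 other groups, a set chosen by these values and given without a test. Abcd2 was at 1.06, 1.75, 1.80, 1.29 and 1.01 CPM in Western diet VB mice, against 5.20 ± 2.35 CPM in Western diet vehicle, 13.7 ± 1.95 CPM in control diet VB and 6.32 ± 2.36 CPM in control diet vehicle mice. Abcc3, Gstm1 and Fam126a were likewise lowest there, Fam126a at 2.71 ± 0.722 CPM, against 5.10 ± 0.725 CPM in control diet vehicle mice. Slc22a7, Rnase2a and several Mup genes were highest there.

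Stress, clotting and energy genes were largely without calls. None of 16 heat shock, 21 endoplasmic reticulum stress, 12 iron, 16 coagulation or 24 amino acid genes was called. The same held for 13 glucocorticoid target, 13 immediate-early, 21 nuclear oxidative phosphorylation and 13 mitochondrially encoded genes. Across all genes tested 3.99% were called, a share at which lists of this size hold few calls or none. Log2 changes without a call ran from -1.87 to 0.84 in immediate-early genes and from -1.51 to 0.072 in iron genes. Of 12 integrated stress response and serine synthesis genes 1 was called, Asns (8.33%). Hspa1a, the inducible chaperone, was at 5.17 ± 1.63 CPM in Western diet VB mice and 5.58 ± 1.82 CPM in control diet vehicle mice, while it was at 0.607 ± 0.158 CPM in Western diet vehicle mice. The 13 mitochondrially encoded genes had log2 changes from 0.19 to 0.54. Their share of counts was 2.68 ± 0.428% against 2.37 ± 0.218% (exact permutation test, 2-sided, p = 0.183). Counts of calls in these lists depend on the spread between 5 mice: in simulated data, 29 of 50 genes changed 1.5-fold and 40 of 50 changed 2-fold were recovered.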

How the data were processed

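For liver RNA of 20 mice the authors deposited unnormalised read counts in 40 lane columns of 32544 genes. Per the labels' protocols, liver was flash-frozen, RNA came from Trizol and libraries from TruSeq chemistry. The submitters' processing notes name GRCm38 as build. Aligner, counter, annotation and strand setting: not given in the sources used here. Lane counts of a mouse were summed: each of the 20 mice had its own lanes as the best correlated pair, and chi-square per gene between its lanes was 1.33 to 1.49, slightly above sampling noise. No column was left unmapped.

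Genes were kept by filterByExpr (minimum count 10, minimum total 15), which left 12616 genes with 99.95% of counts. All 4 groups were fitted with edgeR 4.0.16 (robust quasi-likelihood, TMM scaling, R 4.3.3). Genes were called below an adjusted p of 0.05 (Benjamini-Hochberg, all tested genes), contrasts being the first group over the second. CPM are on TMM-scaled library sizes, intervals are 95%, and standard errors come from the F statistic. Shares were tested by exact permutation over mice. Totals of about the same size per mouse leave the spread between mice as the main error. The procedure was tested on simulated counts of 12463 genes for this comparison: recovery was 29 of 50 genes at 1.5-fold, 40 of 50 at 2-fold, 50 of 50 at 3-fold, 48 of 50 at 4-fold, with 8 unchanged genes called.

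Groups come from the titles. The comparison, the 56 gene lists, the 13 marker lists and the rules were chosen with earlier results of these data known. The text names fixed genes, the 12 largest rises and falls among genes with a proper symbol, groups apart and at least 1 CPM in the higher group, up to 4 called members per list, genes apart from all other groups and genes moved back by VB. Adipoq, S100a9, Mup20, Alb, Dhcr7 and a few other list or marker members were named after their values were seen, and not every gene the rule takes is reported; some results are not reported here. GENCODE (GRCm38) gave positions for 12275 of the 12616 symbols. Promoter windows come from RefSeq (GRCm38.p6) for the 23 cholesterol, 18 clock, 12 heat shock and 9448 tested genes that had one. Alternatives were RLE, upper-quartile and Mup-free scaling, DESeq2 1.42.0, limma-voom (limma 3.58.1), other filters, only the 2 groups, a block for mouse number, lanes taken singly, the clock score as covariate and leaving out each mouse. Leaving out Western diet VB mice 2 and 5 was added after seeing the data.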

Additional observations from a re-analysis of the deposited data

Results flagged for a closer look

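Among 220 gene-and-group sets of 5 mice, 14 held 1 mouse far from its group by Dixon's test, where chance gives about 1 in 20. In sterol genes, Western diet VB mouse 3 was high in Idi1 (21.0 CPM, others 17.2 to 18.1) and Fdps (92.7, others 67.3 to 72.3), and control diet vehicle mice were high in Idi1 (mouse 4, 367, others 238 to 266) and Abca1 (mouse 3, 92.9, others 60.7 to 66.5). Western diet VB mouse 1 was high in Cth (419, others 256 to 294) and low in Nfil3 (24.2, others 40.0 to 44.6) and Hamp (126, others 199 to 221). Western diet VB mouse 4 was low in Cidea (0.0515, others 0.477 to 0.865), and mouse 5 in H2-Ab1 (17.4, others 23.5 to 26.3). Control diet vehicle mouse 4 was high in Cyp3a11 (1036, others 691 to 772) and Cth (566, others 503 to 513) and low in Lipe (5.79, others 7.20 to 7.80). Control diet vehicle mouse 1 was low in Ciart (0.310, others 1.18 to 1.79) and Mt1 (10.1, others 73.6 to 91.4).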

How the results depend on the processing

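Against 504 genes, 765 were called with DESeq2 and 120 with the clock score as covariate. RLE, upper-quartile and Mup-free scaling gave 503, 510 and 503, limma-voom 493, no filter 412, a 1 CPM filter 519, only both groups 457, and single lanes 428 and 433. Leaving out 1 mouse gave 368 to 471, and leaving out Western diet VB mice 2 and 5, added after seeing the data, 363 (299 shared). The mouse number as a block gave 615 calls, and the difference in Mup share, 9.17 percentage points, then had an exact p of 0.0625, the smallest that 5 pairs allow. The block ended the calls of Saa1 and Saa2. The numbers share no animal. Correlations of same-numbered mice ran from -0.00191 to 0.156 between the groups compared, and from -0.0652 to 0.378 over all pairs of groups. Between the groups compared, the same-numbered mouse was the closest match for numbers 2, 4 and 5 and not for 1 and 3. For number 5 it was the closest in every pair of groups. Whether the numbers follow shared handling was not tested. The mitochondrial share difference was 0.148 to 0.439 points without 1 mouse. Its exact permutation p was 0.0476 without Western diet VB mouse 5, the only mouse whose omission took it below 0.05. With the clock score as covariate the sign turned in Tef (-0.16), Usp2 (-0.12), Wee1 (-1.0), Arntl (0.13), Saa2 (-1.15), Orm3 (-0.15) and Elovl3 (0.27). Of these, clock genes are part of the score, and for the others the cause was not tested. The score did not overlap between Western diet VB mice and either vehicle group, so fits with it cannot separate score from group. Of 85 called genes from those considered for naming, 66 kept their call in every setting but the clock score, with which 41 kept it, 37 lost it and 7 turned sign. Western diet VB against Western diet vehicle, 907 genes, had 1 call with the clock score as covariate, 295 without Western diet VB mice 2 and 5, 464 with only both groups compared and 605 to 1225 without 1 mouse (605 without Western diet VB mouse 5, 1225 without Western diet vehicle mouse 4). Counts near 0, as in Rnase2a and Adipoq, limit the folds.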
